A study of Mus musculus with 12 samples.

Results

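The Hox genes of mouse back skin are described here over 12 Affymetrix arrays. They were chosen by symbol as every gene named Hoxa, Hoxb, Hoxc or Hoxd with a number from 1 to 13 that had a probe set mapped to it alone. This rule used no measured value, though earlier results of these data were known when it was chosen. It gave 33 genes of 18193 measured, and of the 39 Hox genes in the RefSeq gene table. They were 9 of 11 Hoxa genes, 9 of 10 Hoxb genes, 7 of 9 Hoxc genes and 8 of 9 Hoxd genes, on chromosomes 6, 11, 15 and 2. Of the other 6, Hoxb8 had only a probe set shared with Hoxb7, Hoxd4 only probe sets shared with Hoxd3, and the remaining 4 were not analysed here.

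The cells came from female mice of a mixed C57BL/6 and CD1 background aged 72 to 74 days, at the second passage of the back hair from telogen, its resting phase, to anagen, its growth phase. Rosa26-YFP, P-cadherin and CD34 served to sort bulge cells, hair germ (HG) cells and total keratinocytes, and the hair follicle stem cells (HFSCs) are those of HG and bulge. The fractions were taken from TßRII-Het (Het) and TßRII-cKO (cKO) skin, TßRII being the type II TGF-beta receptor, and in a set 1 and a set 2. By their labels, set 1 holds quiescent HFSCs in both genotypes, and set 2 activated HFSCs in Het and aberrantly quiescent ones in cKO. Both genotypes carried the Rosa26-YFP reporter, and the labels do not name the Cre that recombined the receptor gene. Of the 10 groups so labelled, 8 had a single array, and there were 2 for total keratinocytes of a genotype, which differ in set. Nothing in the labels says how many mice gave an array or whether fractions came from the same mice, so the spread behind each p-value is that between arrays, which may be technical.

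Hox genes encode homeodomain transcription factors that give cells their position along the body axis. They lie in 4 clusters, and genes of the same number in different clusters are paralogs. Low numbers lie at the end of a cluster that is used toward the head, and high numbers at the end used toward the tail. Adult skin keeps a regional Hox pattern, best known in dermal fibroblasts, and Hoxc13 stands apart as a factor needed for hair shaft formation, where it acts on hair keratin genes. Hox proteins bind DNA together with TALE homeodomain cofactors of the Pbx, Meis and Pknox families.

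Values are log2 of the deposited signal, on which a difference of 1 is 2-fold. The 25th percentile of the signal pooled over arrays (20.7, or 4.37 on the log2 scale) is called the floor, and lower signals were raised to it. A probe set's level cannot be set against another probe set's, so genes are described through their differences between arrays, and the number of arrays on which each exceeded the pooled median signal of 84.7 is given only to show which could be tested. Genes above that median on at least 2 arrays of a fit were tested with limma, and a gene is called at an adjusted p under 0.05. Where values of 4 arrays of a fraction are given, they stand in the order Het set 1, cKO set 1, Het set 2 and cKO set 2.

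Median signal was 64.1 to 109 per array. Tgfbr2, the targeted gene, had 3 probe sets. The 1 with signal above the floor on all arrays gave 10.35 to 12.39 in Het and 11.31 to 12.14 in cKO, and the sources used here do not say where its probes lie relative to the deleted part, so it checks no genotype label. Cd34, which encodes a marker of the sort, was 14.42 to 14.79 in bulge and 7.65 to 8.69 in HG, and the basal keratinocyte markers Krt5, Krt14, Trp63, Itgb4 and Col17a1 were above the pooled median on every array. Markers of fibroblasts had signal on all arrays and the most in bulge. The mean log2 signal of 10 fibroblast markers was 11.92 to 13.27 in bulge, 8.88 to 9.85 in HG and 9.22 to 10.46 in total keratinocytes, and their summed signal was 128949 to 293239, 16213 to 29679 and 19178 to 48569. None of the 10 was at the floor on any array. Melanocyte markers had a mean of 9.78 to 10.35 in HG, 7.55 to 8.47 in bulge and 6.95 to 8.31 in total keratinocytes. The cKO total keratinocyte array of set 1 stood apart in milk protein genes, for example Csn2 at 13.46 against 4.37 to 7.80 on the 11 others. Results that rest on the total keratinocytes are given with and without it where that changes them.

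The promoters of Hoxd8 and Hoxd9 are shown because these neighbours differed most between fractions. RefSeq sequences of 19 of the 33 genes (21 promoters, GRCm38.p6) were in the table used, each running from 250 bases before the start of the gene to 50 after it. Both lie on the plus strand, Hoxd8 at chr2:74704365-74704664 and Hoxd9 at chr2:74697513-74697812. Capitals mark CTTTGA, letters at the core of the sequence that Tcf and Lef factors recognise.
Hoxd8: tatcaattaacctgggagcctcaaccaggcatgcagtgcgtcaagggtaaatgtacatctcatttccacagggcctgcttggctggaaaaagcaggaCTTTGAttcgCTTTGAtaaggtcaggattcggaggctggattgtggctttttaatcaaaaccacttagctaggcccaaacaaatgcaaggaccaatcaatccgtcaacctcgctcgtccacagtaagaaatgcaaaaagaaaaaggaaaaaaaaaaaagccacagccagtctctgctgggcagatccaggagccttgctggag
Hoxd9: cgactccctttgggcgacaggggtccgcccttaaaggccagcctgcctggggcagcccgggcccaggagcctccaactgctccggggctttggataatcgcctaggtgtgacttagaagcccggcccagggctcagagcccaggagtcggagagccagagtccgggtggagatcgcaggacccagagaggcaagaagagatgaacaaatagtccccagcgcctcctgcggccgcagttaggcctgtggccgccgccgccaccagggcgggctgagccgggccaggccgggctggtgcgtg
CTTTGA was found at 2 places in the Hoxd8 promoter, both on the plus strand, and on neither strand of the Hoxd9 promoter. It stood in 4 of the 21 Hox promoters, those of Hoxa10, Hoxa11, Hoxd8 and Hoxd12, and in 16.0% of all 32851 promoters of that length. The pair also differ in base composition. The Hoxd8 promoter has 6 CG pairs and 46.7% G and C, and that of Hoxd9 has 20 CG pairs and 68.3%. The median number of CG pairs was 7 over all promoters and 15 over the Hox promoters. Another 3 motifs were searched on both strands, each counted on its own whether or not it overlapped another. TAATTA, a homeodomain core, was in 5.3% of all promoters and in 2 Hox promoters, both of Hoxd11. TGATNNAT, a joint Pbx and Hox sequence, was in 8.8% of all and in those of Hoxa2, Hoxb1 and Hoxd11. TATAAA was in 13.6% of all and in those of Hoxa10 and Hoxd13. These matches are descriptions of the letters only.

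Of the 33 genes, 15 were above the pooled median on all 12 arrays: Hoxa3, Hoxa5, Hoxa7, Hoxa9, Hoxb2, Hoxb3, Hoxb4, Hoxb5, Hoxb6, Hoxc4, Hoxc5, Hoxc6, Hoxc8, Hoxc13 and Hoxd8. On none of the arrays were Hoxa10, Hoxa11, Hoxa13, Hoxb1, Hoxb13, Hoxd1, Hoxd10, Hoxd11, Hoxd12 and Hoxd13. The other 8 passed it on some arrays, namely Hoxa2 on 10, Hoxa4 on 6, Hoxb7 on 2, Hoxb9 on 11, Hoxc9 on 10, Hoxc10 on 2, Hoxd3 on 4 and Hoxd9 on 7. In this way 23 genes reached 2 arrays and could be tested. Hoxb7 and Hoxc10 did so on bulge arrays only.

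These counts are an inventory. A gene's count depends on how strongly its probe set responds, so no pattern along a cluster or between genes is read from it, and a signal under the median does not show that a gene is off. The paralogs of Hoxc13 passed the median on none of the arrays, Hoxb13 being at the floor on all 12, Hoxa13 ranging up to 5.43 and Hoxd13 up to 5.90.

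**Figure D1:**
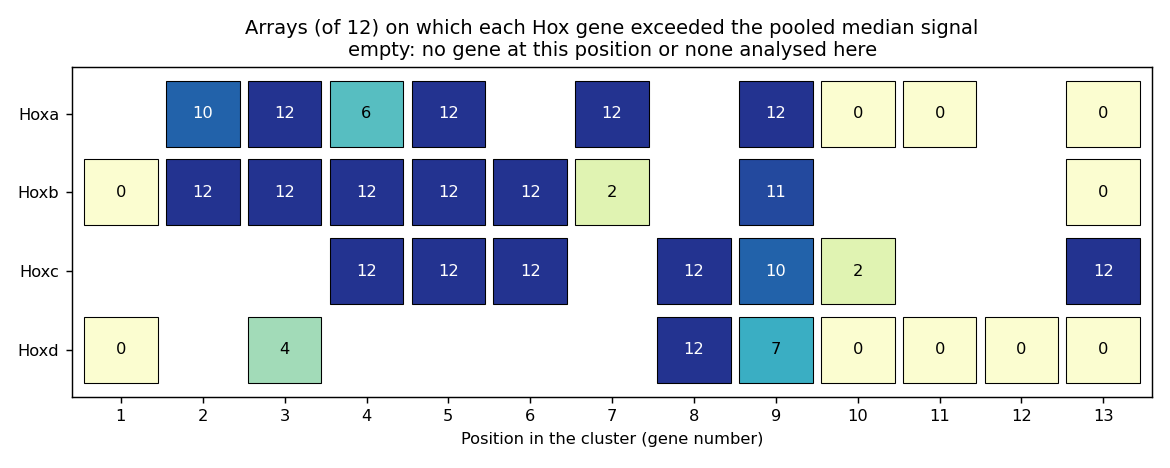
Number of the 12 arrays (0 to 12, written in each box and shown by its shade) on which each Hox gene exceeded the pooled median signal, by cluster (rows) and position in the cluster (columns). The count is 12 for 15 genes and 0 for 10, and the boxes are not to be set against each other, since probe sets differ in their response.

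The number of Hox genes above the median was similar over the arrays. It was 17 to 20 in HG, 20 to 23 in bulge and 17 to 20 in total keratinocytes, where 58.3% to 67.0% of all genes passed. The Het bulge array of set 2 had the most (23), with Hoxb7, Hoxc10 and Hoxd3 among them, and the Het HG and Het total arrays of set 2 the fewest (17). Within a gene the span from its lowest to its highest array ran, over the 23 tested, from 1.04 for Hoxc6 to 4.78 for Hoxd9. The next widest spans were those of Hoxd8 (4.64), Hoxc9 (3.72), Hoxc13 (3.37) and Hoxb9 (3.31). Hoxb2, Hoxa5, Hoxb4 and Hoxa7 spanned 1.29 to 1.41.

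Against bulge, Hoxc13 was higher in HG and 8 other Hox genes were lower: Hoxa3, Hoxa5, Hoxa7, Hoxb5, Hoxb9, Hoxc8, Hoxd8 and Hoxd9. These 9 calls of 23 stand beside 19.2% of the 12589 genes tested (8.44% higher and 10.7% lower). Of the 23, 19 had a difference below 0, and the median of the 23 was -0.79 against -0.02 over all genes tested. Among the 19 were Hoxb7 and Hoxc10, which passed the pooled median on bulge arrays only, and Hoxd3, which passed it on 3 bulge arrays and 1 HG array. By cluster, all 7 Hoxb and all 3 Hoxd genes, 5 of 6 Hoxa genes and 4 of 7 Hoxc genes were on the lower side. Markers of fibroblasts moved the same way, all 10 tested being lower in HG with a median of -3.31. So did those of bulge, with 6 of 7 lower, 0 higher and a list median of -3.22. Of 8 melanocyte markers, 7 were higher and 1, Mitf, was lower, with a list median of 2.74. Hair germ markers were higher in 5 of 6 (median 1.85). Their part in the Hox differences was not tested, and in sorted bulk samples fewer cells of a type and less RNA per cell cannot be told apart.

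Hoxc13 was the gene called higher in HG. Its log2 signal was 10.90, 10.84, 11.75 and 11.09 in HG, 9.59, 8.98, 9.56 and 9.18 in bulge and 9.17, 8.97, 10.09 and 8.38 in total keratinocytes. All 4 HG arrays lay above all 8 others, and bulge and total keratinocyte arrays overlapped. HG exceeded bulge by 1.82 (SE 0.18, adjusted p 2e-04, higher in 4 of 4 conditions) and total keratinocytes by 1.99 (SE 0.22, adjusted p 5e-04, 4 of 4). Between bulge and total keratinocytes the difference was 0.17, with a 95% interval of -0.30 to 0.64. With set 1 alone HG exceeded bulge by 1.59, and with set 2 alone by 2.05.

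Hoxd9 had the widest difference downward. It was 6.25, 6.55, 5.84 and 7.10 in HG, 9.05, 9.11, 8.33 and 9.16 in bulge and 6.84, 6.07, 6.11 and 4.37 in total keratinocytes, where the cKO array of set 2 was at the floor. All bulge arrays lay above all others. The difference of HG from bulge was -2.48 (SE 0.27, adjusted p 3e-04), and bulge above total keratinocytes by 3.07 (SE 0.46, adjusted p 4e-04). The latter was 3.59 with no floor and 2.40 with the floor at the pooled median.

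Hoxd8, its neighbour, followed the same order with an exception. It was 9.04, 9.05, 11.51 and 9.07 in HG, 11.89, 11.44, 11.22 and 11.80 in bulge and 8.99, 8.65, 9.60 and 7.25 in total keratinocytes. The Het HG array of set 2 lay within the bulge arrays, and the other 3 HG arrays lay more than 2 below the lowest of them. HG was lower in 3 of 4 conditions, with a difference of -1.92 (SE 0.45, adjusted p 0.0180), which was -2.65 without the Het arrays of set 2. Bulge exceeded total keratinocytes by 2.96 (SE 0.45, adjusted p 5e-04) in 4 of 4. The second Hoxd8 probe set gave -1.66 and 2.88 for these differences.

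Hoxb9, a posterior gene of the Hoxb cluster, was 7.33, 6.73, 7.39 and 6.67 in HG, 9.10, 8.35, 9.50 and 8.78 in bulge and 7.16, 6.42, 6.76 and 6.18 in total keratinocytes. Its bulge arrays lay above all 8 others. HG was below bulge with a difference of -1.90 (SE 0.24, adjusted p 8e-04), and bulge exceeded total keratinocytes by 2.31 (SE 0.24, adjusted p 3e-05). Hoxc8, a gene of the trunk, was 10.14, 9.92, 10.48 and 10.03 in HG, 11.41, 11.51, 11.55 and 11.09 in bulge and 10.20, 9.79, 10.18 and 9.95 in total keratinocytes. Bulge again stood above the rest, with -1.25 for HG against bulge (SE 0.16, adjusted p 9e-04) and 1.36 for bulge against total keratinocytes (SE 0.15, adjusted p 5e-05). These 2 genes, Hoxd9 and Hoxc13 were called between HG and bulge with any 1 of the 4 conditions left out.

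The other calls between HG and bulge were smaller. Hoxb5 was 6.75, 7.06, 7.40 and 6.87 in HG and 8.18, 7.86, 8.36 and 8.0 in bulge, a difference of -1.08 (SE 0.27). Hoxa3 was 7.29, 7.80, 6.78 and 7.44 in HG and 8.39, 8.25, 8.75 and 8.66 in bulge, a difference of -1.19 (SE 0.29). In both genes the highest HG array lay below the lowest bulge array. Hoxa5 was 10.47, 10.28, 10.23 and 9.98 in HG and 11.29, 10.93, 10.61 and 11.28 in bulge, a difference of -0.79 (SE 0.18), and its second probe set gave -0.77. Hoxa7 was 9.15, 8.33, 8.70 and 8.51 in HG and 9.74, 9.53, 9.30 and 9.17 in bulge, a difference of -0.76 (SE 0.20). Their groups did not overlap either, though by little: the highest HG array of Hoxa7 was 9.15 and its lowest bulge array 9.17. In total keratinocytes Hoxa3 was 8.23, 8.25, 7.92 and 7.31, with set 2 cKO within the HG range and the highest, 8.25, at the level of the lowest bulge array. Hoxa5 was 10.96, 10.70, 10.52 and 10.42 there, overlapping both. The adjusted p of these 4 genes lay between 0.0169 and 0.0276. They and Hoxd8 made up what was lost without the Het arrays of set 1 or the cKO arrays of set 2. This left 4 calls each, beside 9.74% and 10.6% of all genes. Without the cKO arrays of set 1, 5 calls were left, Hoxa3 among them, beside 11.6%. Without the Het arrays of set 2 there were 12, beside 22.7% of all genes. These 12 added Hoxb6 (-1.08), Hoxc9 (-1.43) and, on the higher side, Hoxc4 (1.17).

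**Figure D2:**
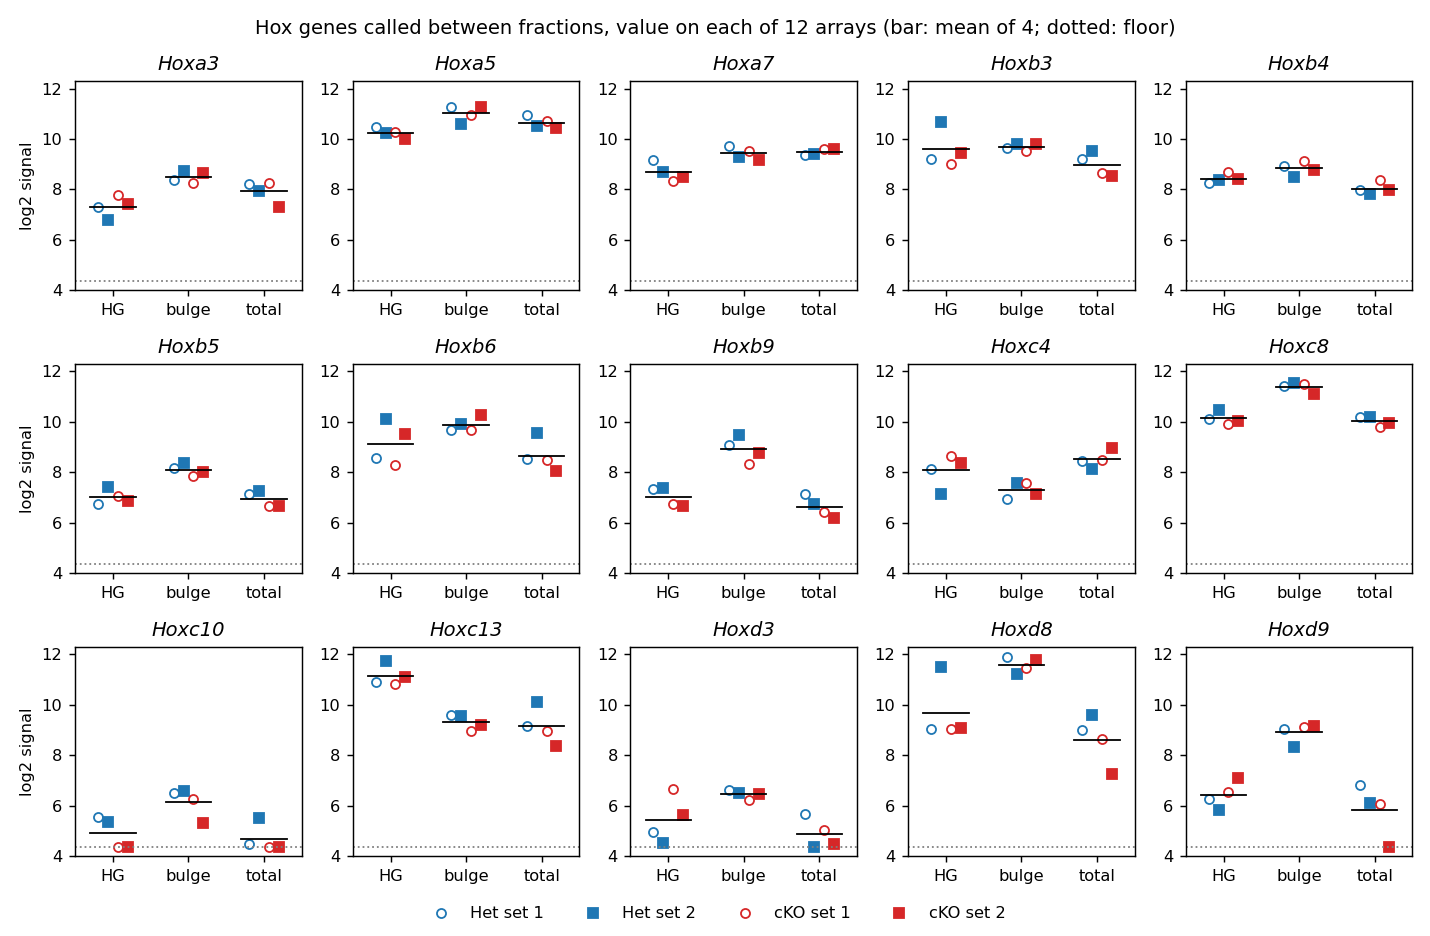
Log2 signal (vertical axis) of the 15 Hox genes called between fractions, on each of the 12 arrays by fraction (horizontal axis), with circles for set 1, squares for set 2, blue for Het and red for cKO. The bar is the mean of 4 arrays and the dotted line the floor at 4.37. The HG points stand above all others for Hoxc13. The bulge points stand above all others for Hoxb5, Hoxb9, Hoxc8 and Hoxd9, and barely so for Hoxa3. For Hoxd8, 1 HG square, at 11.51, lies among the bulge points.

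Over HG and bulge, the arrays did not overlap for 9 of the 23 Hox genes, 1 higher and 8 lower, beside 21.5% of all genes tested (9.33% higher and 12.1% lower). The 8 included Hoxc9, which was not called, and left out Hoxd8. The paralogs of number 9 lay on the same side: HG minus bulge was -0.43 for Hoxa9, -1.90 for Hoxb9, -1.28 for Hoxc9 and -2.48 for Hoxd9, of which the second and the last passed the test. Of number 8, Hoxc8 and Hoxd8 were both called lower. The probe set shared by Hoxb7 and Hoxb8 gave -0.79, untested. Numbers 4 and 5 were mixed, with 0.42 for Hoxa4, -0.41 for Hoxb4 and 0.77 for Hoxc4, and -0.79 for Hoxa5, -1.08 for Hoxb5 and 0.20 for Hoxc5.

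Against total keratinocytes, 10 Hox genes were higher in bulge, Hoxb3, Hoxb4, Hoxb5, Hoxb6, Hoxb9, Hoxc8, Hoxc10, Hoxd3, Hoxd8 and Hoxd9, and Hoxc4 was lower. These 11 calls of 23 stand beside 24.2% of the 12749 genes tested (13.8% higher and 10.5% lower), and the Hox median was 0.73 against 0.05. Among the 10, Hoxc10 passed the pooled median on bulge arrays only, and Hoxd3 on 3 bulge arrays, 1 HG array and no total keratinocyte array. Hoxb7, which enters the Hox median, also passed it on bulge arrays only. In the Hoxb cluster 5 of 7 were called, in Hoxc 3 of 7, in Hoxd 3 of 3 and in Hoxa 0 of 6, where differences ran from -0.93 for Hoxa4 to 0.58 for Hoxa3. Whether the clusters differ was not tested. All 10 fibroblast markers (list median 2.68) and all 7 bulge markers (list median 2.05) were higher in bulge as well. So were 3 of 3 endothelial markers (median 1.49) and 3 of 6 dermal papilla markers, of which 1 was lower (median 1.24), while 3 of 4 suprabasal keratinocyte markers were lower (median -1.16). The part of these in the Hox differences was not tested.

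Hoxb6 was 8.57, 8.29, 10.12 and 9.54 in HG, 9.68, 9.69, 9.93 and 10.27 in bulge and 8.55, 8.51, 9.55 and 8.07 in total keratinocytes, with bulge higher than the last by 1.22 (SE 0.29, adjusted p 0.00900). Hoxb5 was 7.16, 6.68, 7.28 and 6.66 in total keratinocytes, and bulge was higher by 1.16 (SE 0.24, adjusted p 0.00400). For both, every bulge array lay above every total keratinocyte array. Hoxb4 was 8.24, 8.69, 8.38 and 8.43 in HG, 8.93, 9.15, 8.51 and 8.79 in bulge and 7.99, 8.39, 7.81 and 7.96 in total keratinocytes, with bulge higher than the last by 0.81 (SE 0.18, adjusted p 0.00645). Its other probe set, above the pooled median on 6 arrays, gave -0.12. The Hoxb4 arrays of these fractions did not overlap, at 8.39 at most in total keratinocytes and 8.51 at least in bulge. Hoxb3 was 9.22, 9.02, 10.69 and 9.45 in HG, 9.66, 9.54, 9.79 and 9.82 in bulge and 9.22, 8.64, 9.53 and 8.52 in total keratinocytes, with a difference of 0.73 between the latter (SE 0.24, adjusted p 0.0457), and its second probe set gave 0.69. Bulge lay above total keratinocytes by as little as 9.54 against 9.53, and the Het HG array of set 2 was the highest of all.

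Outside the bulge, Hoxc10 ran from the floor at 4.37 to 5.55, and Hoxd3 from the floor to 6.67. The highest Hoxd3 value, 6.67 on the cKO HG array of set 1, lay above all its bulge arrays. Hoxc10 passed the pooled median on 2 bulge arrays and no others, so it was tested only through the fraction where it was high. Hoxd3 was 4.96, 6.67, 4.53 and 5.65 in HG, 6.63, 6.23, 6.52 and 6.45 in bulge and 5.68, 5.05, 4.37 and 4.47 in total keratinocytes, and bulge was higher than total by 1.56 (SE 0.50, adjusted p 0.0370). Hoxc10 was 5.55, 4.37, 5.34 and 4.37 in HG, 6.49, 6.26, 6.58 and 5.32 in bulge and 4.49, 4.37, 5.50 and 4.37 in total keratinocytes, with a difference of 1.48 (SE 0.46, adjusted p 0.0332). Values of 4.37 are at the floor, and both differences moved with it. With no floor they were 1.81 for Hoxd3 and 3.12 for Hoxc10, and with the floor at the pooled median 0.10 and 0.06, where neither passed. Hoxd3 did not pass with any 1 condition left out, and Hoxc10 did not without the cKO arrays of set 1 (1.34) or of set 2 (1.65). The bulge arrays lay above the total keratinocyte arrays for Hoxd3, and those of Hoxc10 overlapped them, since its cKO bulge array of set 2 was 5.32 and its Het total array of set 2 5.50.

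Hoxc4, an anterior gene of its cluster, ran the other way. It was 8.15, 8.64, 7.15 and 8.38 in HG, 6.93, 7.60, 7.58 and 7.14 in bulge and 8.45, 8.51, 8.15 and 8.97 in total keratinocytes. Every bulge array lay below every total keratinocyte array, and the difference was -1.21 (SE 0.29, adjusted p 0.00915). Against HG the bulge overlapped, because the Het HG array of set 2 was low at 7.15. Hoxc5 beside it had -0.37, and its 95% interval took in 0.

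Of the 23 genes, 18 had their highest mean in bulge, 4 in total keratinocytes (Hoxa4, Hoxa7, Hoxc4 and Hoxc5) and Hoxc13 alone in HG. The 18 include Hoxb7 and Hoxc10, which passed the pooled median on bulge arrays only, and Hoxd3, which passed it on 3 bulge arrays and 1 HG array. Bulge and total keratinocyte arrays did not overlap for 12 Hox genes, 11 higher and 1 lower in bulge, beside 26.5% of all genes tested (15.3% higher and 11.2% lower). Hoxb4, Hoxb5, Hoxb9, Hoxc8, Hoxd8 and Hoxd9 were called with any 1 condition left out. Leaving out the Het arrays of set 1 or the cKO arrays of set 2 gave 7 calls each. Without cKO total keratinocytes of set 1 there were 8, and Hoxb3 (0.74), Hoxc10 (1.45) and Hoxd3 (1.45) did not pass. The share of all genes called in these fits is not given, so their counts are not read as particular to Hox genes.

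**Figure D3:**
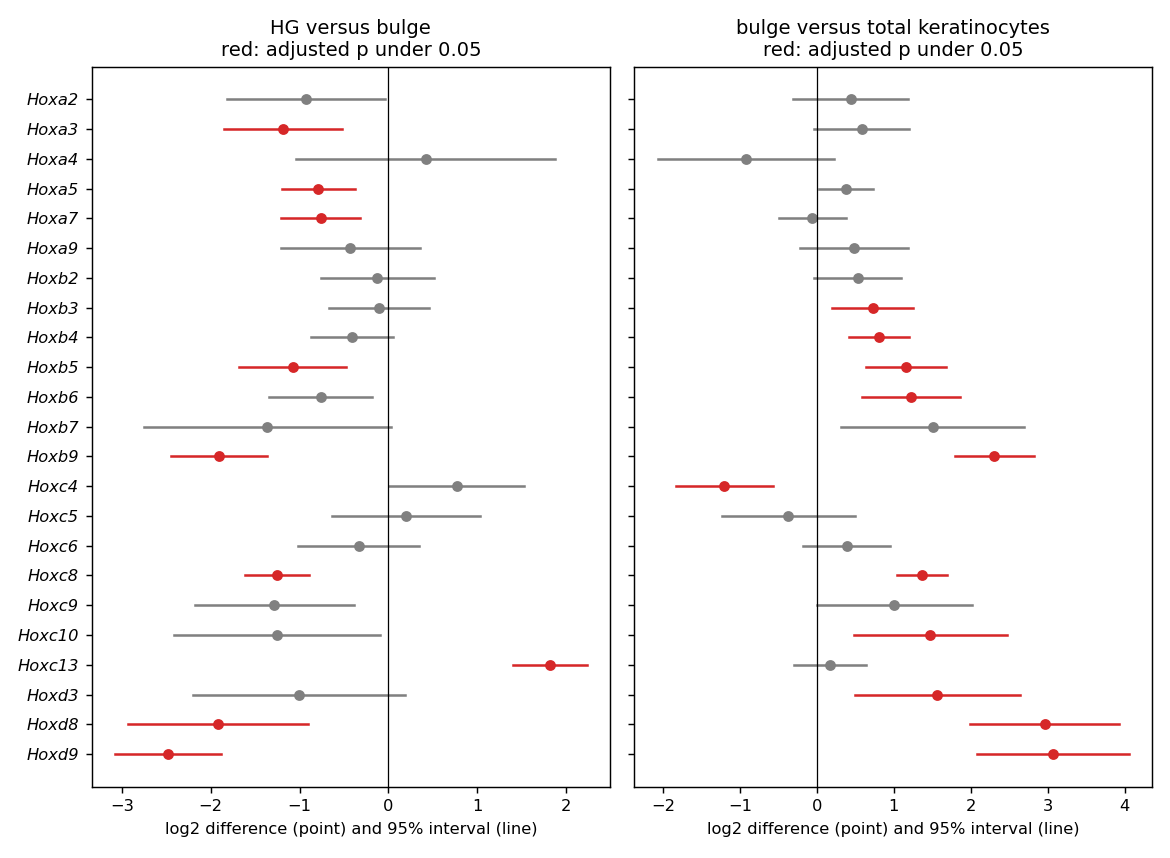
Log2 difference (horizontal axis) with its 95% interval for each of the 23 Hox genes tested, in cluster order from Hoxa2 to Hoxd9, for HG against bulge (left) and bulge against total keratinocytes (right), with called genes in red. Hoxc13 is the red point right of 0 on the left, at 1.82, and Hoxc4 the red point left of 0 on the right, at -1.21, while Hoxd9 is farthest from 0 in both, at -2.48 and 3.07.

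HG and total keratinocytes differed in 2 of the 23 Hox genes, beside 10.8% of all genes tested (5.11% higher and 5.72% lower). Hoxc13 was higher, as given above. Hoxa7 was lower in HG, with 9.35, 9.62, 9.40 and 9.62 in total keratinocytes against 9.15, 8.33, 8.70 and 8.51 in HG, a difference of -0.82 (SE 0.20, adjusted p 0.0232). Its HG arrays all lay below the total keratinocyte arrays. It did not pass without the cKO arrays of set 1 (-0.67), without the cKO arrays of set 2 (-0.73) or without cKO total keratinocytes of set 1 (-0.74). The Hox median was 0.11 against 0.04 over all genes, and these 2 were also the only Hox genes whose arrays did not overlap, beside 15.1% of all genes (7.99% higher and 7.08% lower). The genes Hoxb9, Hoxc8 and Hoxd9, called between HG and bulge, had differences of 0.40, 0.11 and 0.59 here that did not pass. In the same comparison 7 of 8 melanocyte markers were higher in HG (median 2.38), and 3 of 4 suprabasal keratinocyte markers (median -1.19) and 3 of 10 fibroblast markers (median -0.37) were lower. Their part was not tested.

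Of 18 genes tied to Hoxc13 in hair formation, 16 were tested between HG and bulge, and 4 of these were higher in HG and none lower, with a list median of 1.06. Krt35, a hair shaft keratin, was higher by 3.49 (SE 0.66), Krt28, an inner root sheath keratin, by 2.60 (SE 0.63), Lef1, a Wnt-responsive transcription factor, by 2.46 (SE 0.49), and Msx2, a homeodomain factor of the hair matrix, by 2.24 (SE 0.50). In bulge of set 1, Krt35 was 5.63 in Het and 4.37, the floor, in cKO, and Krt28 was 5.59 and 5.46. All 4 lay under the pooled median, so the size of these 2 differences is uncertain. In cKO of set 2, Krt28 was 9.58 in HG and 9.35 in bulge. Lef1 is also on the hair germ marker list. Krt33a, another hair keratin, had 2.52 (adjusted p 0.10). Foxn1, a factor of hair differentiation placed downstream of Hoxc13, was not called there, and was lower than in total keratinocytes in HG (-1.29, SE 0.37) and in bulge (-1.62, SE 0.37). The summed signal of the 17 measured genes of the list ran from 2245 to 63545 in HG, from 1502 to 5036 in bulge and from 1753 to 29587 in total keratinocytes. The highest array in HG was that of Het in set 2, where Krt35 was 13.75 against 7.25 to 9.55 on the other HG arrays.

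The TALE cofactors Pknox2 and Pbx3 were highest in bulge, as were the means of 18 of the 23 Hox genes tested. Between HG and bulge 2 of 6 tested were lower, Pknox2 by a difference of -2.22 (SE 0.24) and Pbx3 of -1.25 (SE 0.20). Between bulge and total keratinocytes 3 of 7 were higher, Pknox2 by 2.07 (SE 0.25), Pbx3 by 1.77 (SE 0.20) and Meis1 by 0.78 (SE 0.20). Between HG and total keratinocytes 0 of 7 were called. Pbx3 was 9.79 to 10.53 in HG, 11.32 to 11.80 in bulge and 9.27 to 10.14 in total keratinocytes. Its bulge arrays thus stood apart from the other 8, as those of Hoxb9 did.

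Among 14 tested regulators of Hox genes, Gmnn, which encodes a replication licensing inhibitor, was higher in HG than in bulge by 1.68 (SE 0.21), and Ezh2, the Polycomb methyltransferase, by 1.32 (SE 0.22). Cbx7, a Polycomb reader, was lower (-0.98, SE 0.26). The list median was 0.09. Against total keratinocytes, bulge was lower in Gmnn (-1.24) and Ezh2 (-0.86) and higher in Cbx7 (0.96), and HG had no call in the list.

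Of 10 tested genes that are not Hox genes but lie in or beside the clusters, 2 were lower in HG than in bulge. These were Hoxb5os (-0.92, SE 0.22), a transcript antisense to Hoxb5, and Skap2 (-0.79, SE 0.22), next to the Hoxa cluster. Hoxb5os differed from total keratinocytes in both, by 1.59 in HG and 2.51 in bulge (SE 0.24 each). Hoxb5 itself was called against total keratinocytes in bulge and not in HG, where its difference was 0.08.

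Of 7 tested genes on a list of other transcription factors of position and of the dermis, 6 were lower in HG than in bulge, with a list median of -1.97. They were Twist2 (-2.44), Dlx5 (-2.40), Prrx1 (-2.24), Shox2 (-1.97), Lhx2 (-1.82) and Tbx15 (-1.81). The same 6 were higher in bulge than in total keratinocytes. Twist2 and Prrx1 are dermal mesenchyme genes, and Lhx2 is also on the bulge marker list.

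No Hox gene was called between the genotypes. Over the 6 pairs of cKO and Het arrays of the same fraction and set, 0 of 23 Hox genes and 0 of 12749 genes in all (0%) passed limma's adjusted p, and 1099 genes had an unadjusted p under 0.05. Of the Hox genes, 4 were among these. The 6 pairs come from 3 fractions in 2 sets, and fractions may share mice, so pairs of the same sign may not be independent repeats. Hoxb9 was lower in cKO in 6 of 6 pairs, by a difference of -0.68 (SE 0.19, adjusted p 0.47). Hoxc13 was lower in 6 of 6 as well (-0.60, SE 0.20, adjusted p 0.52). Hoxb3 had -0.52 (adjusted p 0.54) and was lower in 5 of 6, and Hoxd8 had -0.83 (adjusted p 0.57) and was lower in 4 of 6. The 95% interval of Hoxc13 was -1.03 to -0.17, before any adjustment for the number of genes, and that of Hoxb9 -1.10 to -0.27. For Hoxd9 it was -0.79 to 0.77 and for Hoxc8 -0.56 to 0.00.

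The other Hox genes lay between -0.81 for Hoxc10 and 0.47 for Hoxc4, and the median was -0.21 against 0.01 over all genes. Hoxb4 was higher in cKO in 6 of 6 pairs, by 0.26, and did not pass. Hoxc10 was lower in 6 of 6 (adjusted p 0.59), with 4 arrays at the floor. Fibroblast markers had a median of 0.53 in the same comparison, with none of 10 called.

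In total keratinocytes, with 2 arrays of each genotype, 0 of 19 Hox genes were called, beside 0% of 11121 genes. An unadjusted p under 0.05 was found for 3 of the 19 and for 247 of all. Hoxd8 had the widest difference, at 8.65 and 7.25 in cKO of set 1 and set 2 against 8.99 and 9.60 in Het, a difference of -1.34 (SE 0.47, adjusted p 1). The groups did not overlap. With the cKO array of set 1 left out the difference was -2.04, which rests on a lone cKO array and is given as a size only. Hoxc13 had -0.95 (SE 0.37) and Hoxb3 -0.79 (SE 0.25), neither called.

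The sets were compared within each genotype over the HG and bulge arrays, which stand for quiescent and activated cells in Het and for quiescent and aberrantly quiescent cells in cKO. In Het, 0 of 23 Hox genes passed, beside 0.707% of all genes (0.0635% higher), and 2 had an unadjusted p under 0.05. Hoxb6 was higher in set 2 by 0.89 (SE 0.36, adjusted p 0.26) and Hoxb3 by 0.80 (SE 0.36, adjusted p 0.30). In cKO, 0 of 23 passed, beside 0% of all genes, of which 777 had an unadjusted p under 0.05, and 2 of the Hox genes. There Hoxb6 had 0.91 (adjusted p 0.79), close to its value in Het, and Hoxc9 -1.73 (SE 0.56, adjusted p 0.79). Hoxc13 had 0.41 in Het and 0.23 in cKO. The interaction of genotype and set called 0 of 23, beside 0.00794% of all genes and with 1 Hox gene at an unadjusted p under 0.05, and its widest Hox value was -2.19 for Hoxc9 (SE 0.79, adjusted p 0.66).

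Hoxc9 was 6.78, 6.87, 6.99 and 4.80 in HG and 7.10, 8.52, 7.82 and 7.13 in bulge. The cKO HG array of set 2, at 4.80, was the lowest of the 12, and the cKO bulge array of set 1, at 8.52, the highest. Between genotypes, 0 of 23 passed limma's test in set 1 (beside 0%, with 0 Hox genes and 261 genes in all at an unadjusted p under 0.05) and 0 in set 2 (beside 0.262%, with 2 Hox genes at an unadjusted p under 0.05). In set 2, Hoxc9 had -1.44 (SE 0.56, adjusted p 0.24) and Hoxd9 1.04 (SE 0.38, adjusted p 0.21). Zbtb16, on the list of Hox regulators, was called there, higher in cKO by 2.87 (SE 0.38).

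Some of these differences changed without the Het bulge array of set 2. The Het HG array of set 2 is then the lone activated array, so they are given as sizes only. The set difference in Het was 2.37 for Hoxd8, 1.53 for Hoxb6 and 1.47 for Hoxb3. The interaction was -2.18 for Hoxd8. The difference of cKO from Het in set 2 was -2.40 for Hoxd8 and -1.28 for Hoxb3.

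The Het HG array of set 2 was therefore set against the other 3 HG arrays, a comparison chosen after its values were seen and made without a test. Counting genes at least 2-fold beyond all 3, Hoxd8 and Hoxb3 were higher and none was lower, of 21 Hox genes, beside 4.64% higher and 9.10% lower of 12554 genes. Hoxd8 was 11.51 there and 9.04 to 9.07 on the others. Hoxb3 was 10.69 and 9.02 to 9.45. Hoxc13, at 11.75 against 10.84 to 11.09, Hoxb6, at 10.12 against 8.29 to 9.54, and Hoxb2, at 10.18 against 8.92 to 9.64, were also highest there by less than 2-fold, as were Hoxb5, Hoxb9, Hoxc8 and Hoxc9. Others were lowest there. Hoxd9, the neighbour of Hoxd8, was 5.84 against 6.25 to 7.10, Hoxc4 was 7.15 against 8.15 to 8.64, Hoxa3 was 6.78 against 7.29 to 7.80, and Hoxa2, Hoxa4, Hoxc6 and Hoxd3 also lay below the other 3. The mean of the fibroblast markers was lowest on that array, at 8.88 against 9.29 to 9.85, although their summed signal was the highest of HG, 29679, with Dcn at 14.56 against 12.48 to 12.81. Means of other markers stood farther apart. Those of suprabasal keratinocytes were 10.91 against 12.34 to 13.43, those of immune cells 7.43 against 9.28 to 9.33, those of basal keratinocytes 12.78 against 13.85 to 14.24 and those of hair germ 11.54 against 10.38 to 10.45. Their part was not tested. The group is 1 array, so the activated state and the array cannot be told apart.

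**Figure D4:**
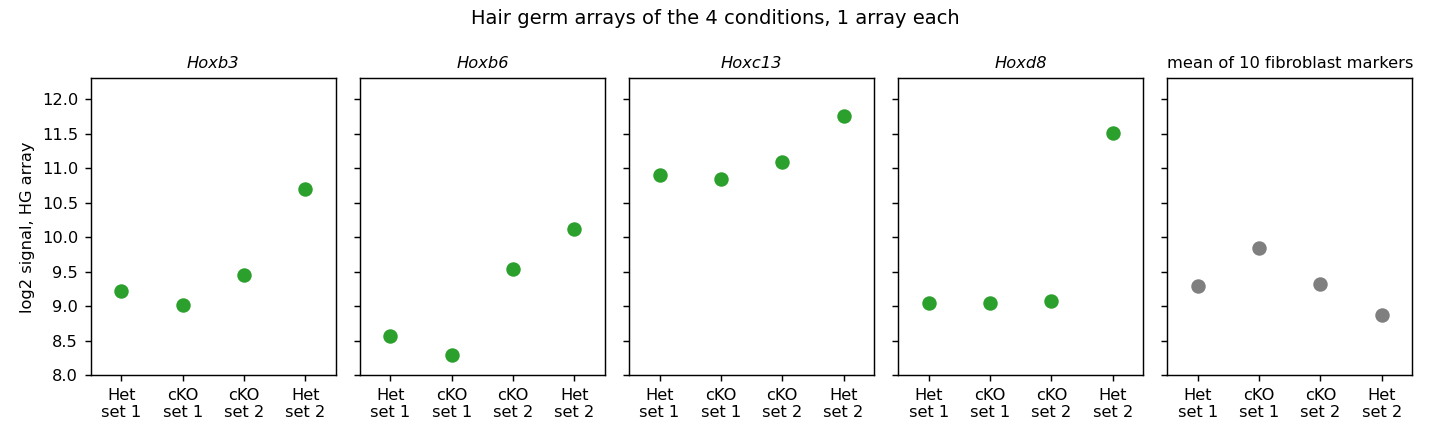
Log2 signal (vertical axis) on the 4 HG arrays, 1 for each genotype and set (horizontal axis), for Hoxb3, Hoxb6, Hoxc13, Hoxd8 and, in grey, the mean of 10 fibroblast markers. The Het array of set 2 is highest for the 4 Hox genes, by the widest gap for Hoxd8 (11.51 against 9.07), and lowest for the fibroblast mean (8.88).

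In total keratinocytes, set 2 was compared with set 1 over 2 arrays each. Hoxc5 was the 1 gene called of 19, beside 1.96% of all genes. It was 6.82 in Het and 7.04 in cKO of set 1, and 8.44 and 8.45 in set 2, a difference of 1.52 (SE 0.28, adjusted p 0.0464). Both arrays of set 2 lay above both of set 1. Its 2 other probe sets were at the floor on 8 and 11 arrays and could not check it. Hoxc5 was 7.90, 7.38, 7.54 and 7.24 in HG and 6.67, 7.51, 8.37 and 6.72 in bulge. There the sets did not share this direction, with 0.67 in Het and -0.47 in cKO, neither called. Of the genes linked to Hoxc13, 7 of 13 were called higher in set 2 in total keratinocytes, with a list median of 3.53, in which set 1 values near the floor enter. Krt25 was 5.62 in Het and 4.37 in cKO of set 1 and 12.74 and 10.05 in set 2, and Krt35 was 5.0 and 5.88 in set 1 and 12.34 and 9.48 in set 2. All 4 values of set 1 lay under the pooled median and 1 was at the floor, so no fold is given for these genes. Hoxc13 itself differed by 0.17 (SE 0.34), and was higher in set 2 in Het (10.09 against 9.17) and lower in cKO (8.38 against 8.97). Of the regulators, Zbtb16 (-1.89) and Kmt2a (-1.07) were lower, and 4 of 9 fibroblast markers were lower too.

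Where a gene had more than 1 probe set, 11 of the 33, the second sets of Hoxa5, Hoxa9, Hoxb3 and Hoxd8 gave the same direction between HG and bulge as the set used. Hoxa4 did not, with HG minus bulge at 0.42 in the set used and -0.74 in the other. The 3 other sets of Hoxa3 gave -0.66, 0.09 and -0.60, and only the first of these was above the pooled median on all arrays. Hoxc6 gave -0.33, -0.73 and 0.37. The sets shared by Hoxd3 and Hoxd4 gave -0.01 and -1.42 for HG minus bulge and 1.14 and 2.35 for bulge minus total keratinocytes, the latter on the same side as Hoxd3. Paralogs are similar in the homeobox, and binding of a paralog’s RNA to a probe set was not tested.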

How the data were processed

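Expression was measured on 12 one-colour Affymetrix arrays. Per the labels' protocols, total RNA was extracted with Trizol, and cRNA labelled with biotin was hybridized. The deposited values are signal intensity on a linear scale, 1 column per array, made with MAS5 per the submitters' processing notes (version not given in the sources used here). In every column the mean after trimming 2% of values at each end was 500. No further normalization was added.

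Of 45101 probe sets, 64 were controls, 34945 had 1 gene symbol, 932 several and 9160 none in the table used. For 34741 of those with 1 symbol, the symbol was looked up by gene ID in the RefSeq gene table. The 1-symbol probe set with the highest mean log2 signal stood for each of 18193 genes. After the floor (20.7) and the filter (above 84.7 on at least 2 arrays), lmFit and eBayes (with trend) of limma 3.58.1, run on R 4.3.3, tested each comparison, two-sided, with Benjamini-Hochberg adjustment over all genes tested. Fractions were compared within the 4 conditions of genotype and set, and genotypes within the 6 cells of fraction and set, both as blocks. In total keratinocytes genotypes had no block and sets had genotype as a block. Sets, their interaction and genotypes within a set were fitted on 8 arrays, HG and bulge, with a fraction term. Comparisons of fractions share arrays, as do those of sets. The fits were tested on simulated data. The number of arrays limits precision.

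All measured Hox genes were named, with values on every array for those called in any comparison and for Hoxc13, and of each list up to 4 members of largest change in a comparison. Beyond that rule, all 6 called genes of the positional list, Msx2 and Foxn1 were named after their values were seen. The Hox genes, the lists and the tests were chosen with earlier results of these data known. Leaving out the cKO total keratinocyte array of set 1, the comparison of the Het HG array of set 2 with its alternatives, and the descriptions by paralog and probe set were added with the values already seen.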

Additional observations from a re-analysis of the deposited data

How the results depend on the processing

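Each comparison was repeated with other blocks, with each set alone, with conditions, cells or arrays left out in turn, with probe sets averaged, with eBayes without trend, with quantile normalization, with the floor removed or raised to the pooled median, and with the filter removed or raised to 474, the pooled 75th percentile. Percentages in brackets are the share of all genes called in the same fit. The 9 Hox calls between HG and bulge (19.2%) became 4 with no filter (3.56%) and 3 with set 2 alone (7.98%). They were 4 to 12 with 1 condition left out (9.74% to 22.7%). Hoxc13, Hoxd9 and Hoxb9 were called in all 16 alternatives and Hoxc8 in 15, while Hoxd8 was called in 10, with differences from -2.65 to -1.22. The Hox median of that comparison ran from -0.84 to -0.43. The 2 calls between HG and total keratinocytes (10.8%) became 1 with no filter (1.91%), with set 1 alone, with set 2 alone and without cKO total keratinocytes of set 1. They were 1 to 2 with 1 condition left out. Hoxc13 was called in all 15. The 11 calls between bulge and total keratinocytes became 7 with the higher filter, 7 with set 1 alone and 4 with set 2 alone, and 7 to 9 with 1 condition left out. The higher filter left 12 Hox genes to test between fractions. Where no share is given, a change of count is not to be read as particular to Hox genes. Hoxb9, Hoxc8, Hoxd8 and Hoxd9 were called in all 15, Hoxb3 in 4, Hoxd3 in 4 of 14 and Hoxc10 in 5 of 10, with differences from 0.06 to 3.12. The single call between sets in total keratinocytes, Hoxc5, became 0 with no filter, the higher filter, the higher floor, the mean of all probe sets, eBayes without trend and no block, and leaving out an array could not be tested there, as no residual degrees of freedom remain. For genotypes in total keratinocytes, sets in Het, the interaction and genotypes in set 2, leaving out 1 array can leave a group with 1 array. No counts are given for those fits. With set as the replicate block, the genotypes in total keratinocytes differed in 0 Hox genes. With 2 pairs the set numbers could not be shown to pair the arrays. Hoxc13 changed sign for bulge against total keratinocytes without the cKO arrays of set 2 (-0.04, in a range up to 0.41), for sets in cKO over all 12 arrays (-0.05), and for the interaction without the Het HG array of set 1 (0.15, in a range from -0.52 with 1 array left out, and -0.62 over all 12 arrays) or of set 2 (0.07), none of them called. The causes were not tested.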
